A study of Rattus norvegicus with 10 samples.

Results

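The genes described here are 10 genes of the contractile apparatus and of the basal keratin skeleton, Acta2, Cnn1, Tpm1, Tpm2, Tpm4, Myl9, Tagln, Myh11, Krt5 and Krt14, measured in 10 rat lacrimal glands. They are 10 of 4736 genes that have a probe set of their own on the array. They were taken by platform gene symbol, which gave 21 probe sets that carry one of these symbols alone, of 8740 probe sets on the array that are not array controls. Of the 21, 19 were bright enough to be tested, covering all 10 genes, among 6118 tested probe sets in all. Another 4 probe sets are listed for Acta2 together with Actc1, the cardiac actin gene, and were kept apart. Total RNA of each gland was hybridised to 1 rat oligonucleotide array. Denervated glands (n = 5) were collected 7 days after the greater superficial petrosal nerve, which carries the parasympathetic fibres of the lacrimal gland, had been cut. The 5 control glands were 3 contralateral glands, also collected at 7 days, 1 gland described as normal and unoperated, and 1 gland collected 7 days after a sham operation. The labels give no strain, sex or age, and leave unsaid whether each gland is from another animal. The p-values thus reflect the spread among these arrays alone, part of which may be technical. Titles and descriptions disagree on the side of the 3 contralateral glands, and the titles were followed.

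The acini of a lacrimal gland are wrapped by myoepithelial cells, which are epithelial cells with a smooth muscle-like machinery that squeeze the acini and help to expel fluid. Smooth muscle cells of vessel walls carry much of the same machinery. In both, smooth muscle actin filaments are decorated by tropomyosin, calponin and transgelin, and smooth muscle myosin pulls on them once its regulatory light chain is phosphorylated. Basal keratins separate the cell types: myoepithelial and other basal epithelial cells make Krt5 and Krt14, whereas vascular smooth muscle makes Myh11 but not these keratins. In whole glands, fewer cells of a type and less RNA per cell cannot be told apart.

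Smooth muscle genes are known as targets of serum response factor, which binds the CArG box, and of TEA domain factors, which bind the MCAT element. Promoter windows of 6 of the 10 genes (Acta2, Cnn1, Tpm1, Tpm2, Tpm4 and Krt5), from 250 bases before to 50 bases after the start, were available from RefSeq on the build GRCr8 and were searched on both strands. The strict CArG box was in 0 of the 6 windows, against 1.64% of 33469 windows of the same length. A CArG-like word, in which 1 of the central bases may be G or C, was in 1 of the 6, Acta2, against 9.42% of all windows. The MCAT word CATTCC, read as GGAATG on the other strand, was in 2 of the 6, Acta2 and Tpm1, against 14.2%. The windows of Acta2 (chr1:241172454-241172753, minus strand) and Tpm1 (chr8:76543366-76543665, minus strand) are shown because they hold the matches, which are in capitals.
Acta2: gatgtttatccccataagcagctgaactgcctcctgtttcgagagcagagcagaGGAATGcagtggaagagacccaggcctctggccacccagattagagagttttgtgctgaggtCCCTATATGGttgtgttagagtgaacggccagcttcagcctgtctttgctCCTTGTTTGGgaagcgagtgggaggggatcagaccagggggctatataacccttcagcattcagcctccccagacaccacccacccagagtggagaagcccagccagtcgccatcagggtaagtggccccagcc
Tpm1: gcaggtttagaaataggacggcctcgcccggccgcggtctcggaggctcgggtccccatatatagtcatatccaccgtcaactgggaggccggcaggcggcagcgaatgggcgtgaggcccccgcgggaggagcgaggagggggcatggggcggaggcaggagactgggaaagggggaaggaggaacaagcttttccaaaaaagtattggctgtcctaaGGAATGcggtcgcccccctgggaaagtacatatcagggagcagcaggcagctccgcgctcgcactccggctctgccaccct
In Acta2 the CArG-like words begin at -134 and -84 and the MCAT word at -196, counted from the start site. In Tpm1 the MCAT word begins at -31. A match describes these letters and is not a measured binding site.

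The arrays did not form a single cloud. Contralateral 1, sham and denervated 1 had scores of -50.0, -54.3 and -51.7 on the first principal component, against -5.30 to 38.2 in the other 7 glands. Their log2 intensities correlated at 0.851 to 0.898 with each other and at 0.715 to 0.821 with the other 7 glands, which correlated at 0.752 to 0.912 among themselves, across tested probe sets. Denervated 5 and 2 stood apart on the second component, with scores of 70.1 and 31.1, against -37.1 to 13.2 in the other 8 glands, and denervated 5 had the lowest mean correlation with the rest (0.765). Dnase1, a secreted nuclease, had intensities of 329146 to 721537 in contralateral 1, sham and denervated 1 and of 762 to 15271 in the other 7 glands. Of the acinar markers, Obp3, Dmbt1 and Bhlha15 had mean log2 intensities of 17.99, 15.06 and 14.80 over all glands, while the secretoglobin Scgb2a1, singled out after its values were seen, was at the floor in 5 glands. Median intensity ran from 554 to 979. The number of arrays limits the precision of every value below.

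No gene of the set passed the test in denervated against control glands, yet most were higher on average. Of the 19 tested probe sets 17 had a higher mean in denervated glands, against 44.6% of all 6118 tested probe sets. The median log2 difference was 0.97, against -0.08 over all. Median scaling of the arrays moved the median of all probe sets to 0.04 and with it the exceptions, 1 probe set of Tpm1 and 1 of Myh11, to 0.10 each, so neither has a settled sign. By limma 0 of 19 passed at an adjusted p under 0.05, as did 0% of all tested probe sets. At an unadjusted p under 0.05 there were 11 higher and 0 lower member probe sets, from 9 genes, Myh11 being the one without. Of all tested probe sets, 5.02% were higher and 4.66% lower at that level. The count of 11 was 3 without denervated 2, 3 without denervated 5, 4 without the sham gland, 5 without contralateral 1 and 0 without denervated 2 and 5 together. In these fits 2.71%, 2.76%, 4.41%, 3.73% and 0.948% of all tested probe sets were higher at that level, so the share over all fell as well. The genes were chosen with earlier results of these data known, so the count is a description.

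Acta2 encodes smooth muscle alpha-actin, the main actin of myoepithelial cells and vessel walls. Its brightest probe set, rc_AA900769_s_at, had intensities of 4958, 41770, 15241, 16185 and 27288 in denervated 1 to 5, 3678, 18913 and 12359 in contralateral 1 to 3, 10449 in the unoperated gland and 5412 in the sham gland. Denervated 2 and 5 were the highest, denervated 1 lay among the lowest, and the groups overlapped. The mean log2 intensity was 14.05 ± 1.16 in denervated and 13.08 ± 0.95 in control glands (SD, n = 5 each), a log2 difference of 0.97 ± 0.53 (SE, limma adjusted p = 0.575). The other Acta2 probe sets, X06801cds_i_at and X06801cds_f_at, differed by 1.00 ± 0.65 and 0.93 ± 0.43 and ranked denervated 2 first as well. Without denervated 2 the 3 differences were 0.64, 0.60 and 0.61, and without denervated 1 they were 1.41, 1.54 and 1.20. Actin coding sequences are nearly identical between genes, so probe sets placed in them may read more than one actin.

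The 4 probe sets listed for both Acta2 and Actc1 did not follow this pattern. Their log2 differences were -1.38 ± 0.76 (X80130cds_i_at), -0.70 ± 0.60 (rc_AI104567_at), -0.53 ± 0.68 (rc_AI104567_g_at) and 0.05 ± 0.43 (X80130cds_f_at), with limma adjusted p from 0.579 to 0.977. X80130cds_i_at had 4245 in denervated 1 and below the floor of 156.2 in denervated 5, against 4061 in contralateral 1 and 4680 in the sham gland, so it was brightest in the 3 glands where Acta2 alone was dim.

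Tagln encodes transgelin, an actin-binding protein of smooth muscle. Its probe set M83107_at had intensities of 719, 6634, 1737, 3348 and 5238 in denervated 1 to 5, against 1111 and 1587 in contralateral 2 and 3, 1456 in the unoperated and 189 in the sham gland, and contralateral 1 was below the floor. Every denervated gland but denervated 1 exceeded all controls. The mean log2 intensity was 11.40 ± 1.30 in denervated and 9.22 ± 1.65 in control glands (SD, n = 5 each), a difference of 2.18 ± 0.76 (SE, limma adjusted p = 0.437). The second probe set, M83107_g_at, differed by 0.93 ± 0.42. With contralateral 1, sham and denervated 1 left out the differences were 1.46 and 0.92.

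Cnn1 encodes calponin, which binds actin and damps the myosin motor. Its intensities were 1388, 4735, 2036, 1669 and 4253 in denervated 1 to 5, against 672, 1918 and 1911 in contralateral 1 to 3, 1208 in the unoperated and 207 in the sham gland. Only denervated 2, 3 and 5 lay above all controls, and the sham gland was the lowest of the 10. The log2 difference was 1.45 ± 0.59 (SE, limma adjusted p = 0.459), and 0.92 without the sham gland.

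Tropomyosins run along the actin filament and gate its contact with myosin, and each gene yields several isoforms. Tpm2, the beta tropomyosin of muscle, had intensities of 753, 3743, 2313, 1829 and 1774 in denervated 1 to 5, against 251, 1624 and 1106 in contralateral 1 to 3, 1021 in the unoperated and 599 in the sham gland. Denervated 2, 3, 4 and 5 lay above all controls and denervated 1 below 3 of them. Its log2 difference was 1.25 ± 0.54 (SE, limma adjusted p = 0.480), and it was 0.85 without contralateral 1. Tpm4, a form found in many non-muscle cells as well, varied least: J02780_at had 7257, 9226, 9453, 10429 and 9767 in denervated 1 to 5, against 7384, 6449 and 7845 in contralateral 1 to 3, 4768 in the unoperated and 6247 in the sham gland. The highest of its values was 2.19-fold the lowest, denervated 2 to 5 lay above all controls, and the difference was 0.51 ± 0.21 (limma adjusted p = 0.459). A second Tpm4 probe set, rc_AI105374_at, differed by 0.48 ± 0.58 (0.25 without contralateral 1 and 0.86 without denervated 4) and was highest in the sham gland.

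The Tpm1 probe sets went different ways. M60666_s_at had 2239, 10382, 3745, 3071 and 7270 in denervated 1 to 5, against 2194, 2887 and 1805 in contralateral 1 to 3, 2037 in the unoperated and 2450 in the sham gland. Denervated 2 to 5 exceeded every control, and the log2 difference was 1.02 ± 0.38 (SE, limma adjusted p = 0.451). M15474cds_s_at and X02412_at differed by 0.78 ± 0.35 (0.49 without denervated 2) and 0.66 ± 0.49, and X02412_at was highest in denervated 5 and lowest in the unoperated gland. The brightest, M34134_s_at, differed by -0.02 ± 0.30 (limma adjusted p = 0.987), with 12217, 13463, 7311, 8175 and 7491 in denervated 1 to 5, against 8410, 9022 and 5297 in contralateral 1 to 3, 11647 in the unoperated and 16775 in the sham gland. Here the sham gland was the highest of all, which it was at no Acta2, Cnn1, Tagln or Myl9 probe set. Which isoforms each probe set reads is not given in the sources used here. The fifth Tpm1 probe set, rc_AI144767_s_at, was too dim to be tested.

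Myl9 encodes the regulatory light chain of smooth muscle myosin, whose phosphorylation starts contraction. Its probe set S77900_g_at had intensities of 2314, 10322, 3212, 3001 and 7484 in denervated 1 to 5, against 281, 2278 and 2143 in contralateral 1 to 3, 2237 in the unoperated and 260 in the sham gland. It was the single member probe set of the 19 at which all denervated glands lay above all controls, a pattern that 0.637% of all tested probe sets showed, although denervated 1 exceeded contralateral 2 by little. The mean log2 intensity was 12.12 ± 0.93 in denervated and 9.90 ± 1.66 in control glands (SD, n = 5 each), a difference of 2.22 ± 0.68 (SE, limma adjusted p = 0.435). It was 1.24 when contralateral 1, sham and denervated 1 were left out, and contralateral 1 and the sham gland were the dimmest controls. The other probe set, S77900_at, differed by 1.06 ± 0.53, or 0.56 without denervated 2, and overlapped between the groups.

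Myh11 encodes the heavy chain of smooth muscle myosin. X16262_s_at had 6421, 2453, 1888 and 5569 in denervated 2 to 5, against 1838 and 2155 in contralateral 2 and 3, 1681 in the unoperated and 290 in the sham gland, and was below the floor in denervated 1 and contralateral 1. It was lowest in the 3 arrays that stood apart, and denervated 2 and 5 exceeded the rest. The log2 difference was 1.28 ± 0.98 (SE, limma adjusted p = 0.676), and 0.93 without those 3 arrays, 0.70 without contralateral 1 alone and 2.19 without denervated 1 alone. S61948_s_at gave a different order, with 164, 2258, 337, 902 and 2229 in denervated 1 to 5, against 1007, 659 and 624 in contralateral 1 to 3, 468 in the unoperated and 1514 in the sham gland. Its difference was -0.04 ± 0.70 (limma adjusted p = 0.986), and 0.51 without denervated 1, the lowest gland. Another Myh11 probe set, X16261_i_at, was too dim to be tested.

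Krt5 and Krt14 pair to form the keratin filaments of basal and myoepithelial cells and are not made by vascular smooth muscle. Krt5 had intensities of 1654, 18820, 3085, 3501 and 13023 in denervated 1 to 5, against 1446, 2935 and 1844 in contralateral 1 to 3, 3641 in the unoperated and 1473 in the sham gland. Denervated 2 and 5 stood far above the rest, and the other denervated glands lay within the range of the controls. The mean log2 intensity was 12.38 ± 1.48 in denervated and 11.04 ± 0.60 in control glands (SD, n = 5 each), a difference of 1.34 ± 0.58 (SE, limma adjusted p = 0.474) that was 0.89 without denervated 2 and 0.31 without denervated 2 and 5. Krt14 had 3865, 9036, 3021, 3062 and 6854 in denervated 1 to 5, against 3497, 3160 and 2011 in contralateral 1 to 3, 2444 in the unoperated and 3056 in the sham gland. It too was highest in denervated 2 and 5, with a difference of 0.75 ± 0.33 (limma adjusted p = 0.505), and 0.24 without them.

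**Figure D1:**
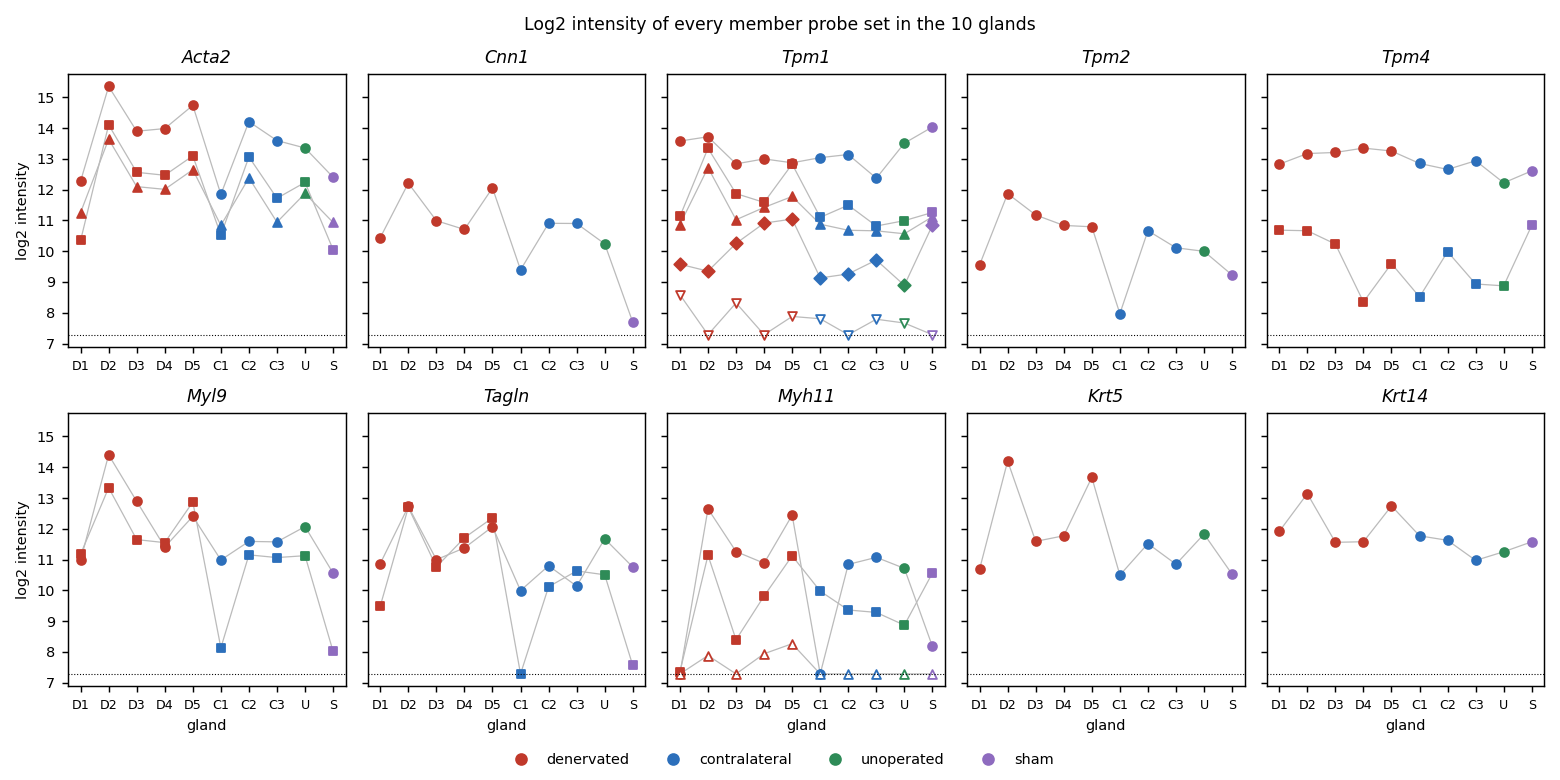
Log2 intensity (y axis) of every probe set of the 10 genes in each gland (x axis), with D1 to D5 denervated, C1 to C3 contralateral, U unoperated and S sham. Each marker shape joined by a grey line is 1 probe set, open markers were too dim to be tested, and the dotted line is the floor of 7.29. Denervated 2 and 5 are highest for most genes, and contralateral 1, sham and denervated 1 are the 3 lowest glands for the brightest Acta2 probe set and for Myh11 X16262_s_at.

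The glands kept a similar order across the genes. Denervated 2 was the highest of 10 glands at 15 of the 19 tested probe sets and among the top 2 at 16, and denervated 5 was among the top 2 at 15. Contralateral 1 was among the lowest 3 glands at 14 probe sets, the sham gland at 12, denervated 1 and the unoperated gland at 8 each and contralateral 3 at 7, where tied values at the floor share a place. The mean of centred log2 values over the 10 genes, with 1 probe set per gene, was -0.69, 1.62, 0.31, 0.16 and 0.98 in denervated 1 to 5, against -1.16, 0.07 and -0.27 in contralateral 1 to 3, -0.04 in the unoperated and -0.97 in the sham gland. Denervated 1 thus lay within the range of the controls, and denervated 3 and 4 lay above it by less than the spread between the denervated glands.

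With contralateral 1, sham and denervated 1 left out, the median log2 difference over the 19 probe sets was 0.93, and 19 of 19 were higher. Over all tested probe sets the median was then -0.04. Within those 3 glands, denervated 1 against the mean of contralateral 1 and sham gave a median of 0.18, with 14 of 19 higher, a comparison without replicates. Leaving out denervated 2 and 5 gave a median of 0.39, against -0.07 over all tested probe sets, with 17 of 19 higher on average. With both sets left out, denervated 3 and 4 against contralateral 2, contralateral 3 and the unoperated gland gave 0.32, again with 17 of 19 higher. Denervated 2 and 5 were left out because they were the highest glands at most of these probe sets. Smaller medians without them were thus fixed in advance and say nothing more. For the comparisons of this paragraph, the share of all tested probe sets with a higher mean was not counted.

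**Figure D2:**
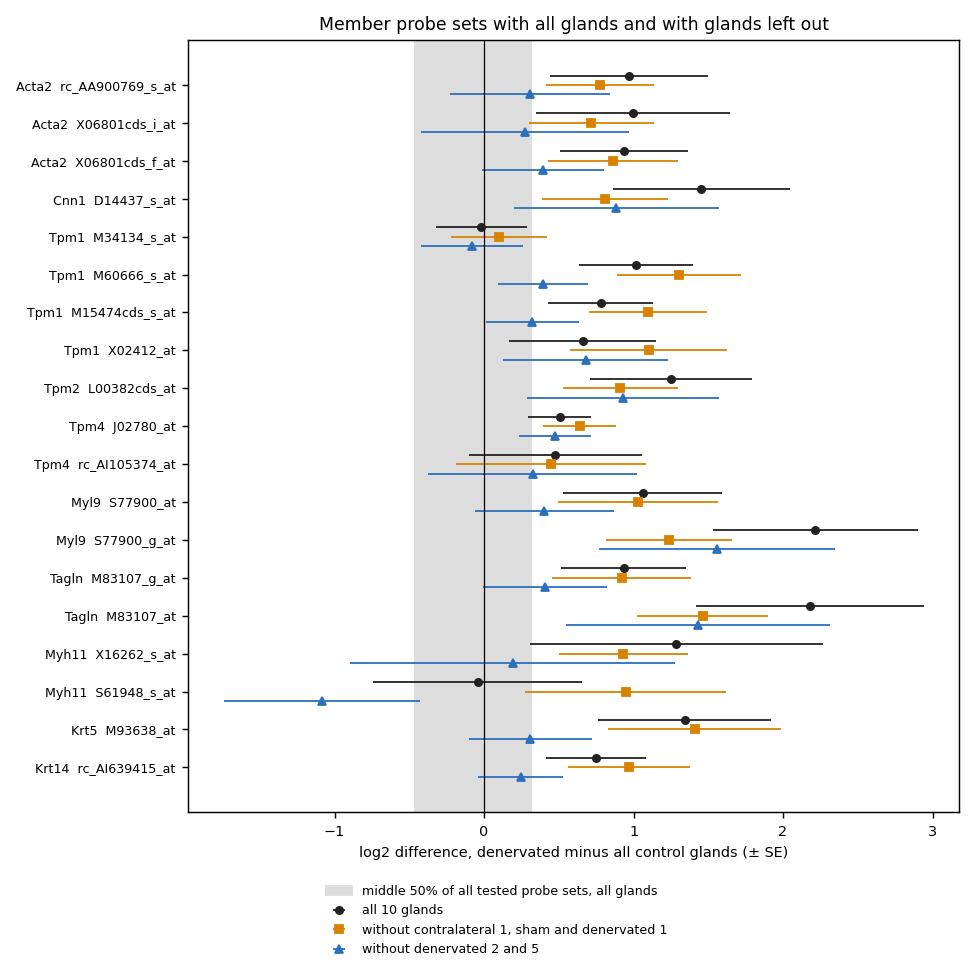
Log2 difference, denervated minus all control glands (x axis, bars are SE from limma), for each tested probe set of the 10 genes (y axis). Black circles use all 10 glands, orange squares leave out contralateral 1, sham and denervated 1, and blue triangles leave out denervated 2 and 5. The grey band is the middle 50% of all tested probe sets. With all glands the differences run from -0.04 to 2.22, and for Krt5 the difference is 1.34 with all glands and 0.31 without denervated 2 and 5.

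Denervated glands were next set against the contralateral glands alone, in a fit of 3 classes that shares 1 estimate of the spread. The same denervated glands enter both comparisons. All 19 probe sets had a higher mean in denervated glands, against 49.5% of all tested probe sets, with a median log2 difference of 0.88, against -0.01 over all tested probe sets. By limma 0 of 19 passed, as did 0% of all, and at an unadjusted p under 0.05 there were 4 higher and 0 lower, against 4.15% and 3.01% of all tested probe sets. The 4 were both Tagln probe sets, Tpm1 M60666_s_at and Myl9 S77900_g_at. Denervated and contralateral glands did not overlap at 2 of the 19, Tagln M83107_g_at and Myl9 S77900_g_at, both higher, against 2.19% of all probe sets. Tagln M83107_g_at had 1873, 6768, 2046, 2663 and 4290 in denervated 1 to 5, against 1020, 1783 and 1128 in contralateral 1 to 3, but the unoperated gland, at 3271, lay within the range of the denervated glands. Its log2 difference was 1.30 ± 0.46 (SE, limma adjusted p = 0.634). The count of 4 was 0 without contralateral 1, 1 without denervated 2, 1 without denervated 5 and 11 without denervated 1. With the gland numbers as a block it was 6. That block joined contralateral and denervated 1 to 3 by number, and put denervated 4, denervated 5, sham and unoperated together. In these fits 3.58%, 2.47%, 2.73%, 7.57% and 3.45% of all tested probe sets were higher at that level.

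The unoperated and sham glands, 1 gland each, were joined as a class for the remaining comparisons, which use the same 3-class fit and its glands. Against this class denervated glands had a median log2 difference of 1.03 over the 19 probe sets, against -0.17 over all, with 17 higher, against 40.8% of all. By limma 0 of 19 passed (0% of all tested probe sets). At an unadjusted p under 0.05 there were 4 higher and 0 lower, against 3.38% and 4.51% of all, 1 each of Cnn1 (2.31 ± 0.73, adjusted p = 0.616), Tpm4, Myl9 and Tagln. The count of 4 was 12 without denervated 1, 2 without denervated 2 and 5, and 7 higher with 1 lower with the gland numbers as a block. In that block the unoperated and sham glands share a level with denervated 4 and 5 alone. In these fits 6.18%, 1.8% and 5.1% of all tested probe sets were higher at that level. Without the sham gland the class held 1 gland, and the median difference was 0.85, against -0.14 over all. For Cnn1 the denervated mean lay 1.04 above the unoperated gland and 3.58 above the sham gland on the log2 scale. The groups did not overlap at 3 probe sets, of Cnn1, Tpm4 and Myl9, all higher in denervated glands, against 4.15% of all. Contralateral glands against the same class had a median difference of 0.01, against -0.15 over all, with 10 of 19 higher, against 40.3% of all, and 1, of Tpm4, higher without overlap, against 6.83%. By limma 0 of 19 passed (0% of all). At an unadjusted p under 0.05 there were 0 higher and 1 lower, against 1.52% and 3.37% of all, the lower one being Tpm1 M34134_s_at (-0.92 ± 0.38, adjusted p = 0.967). It was also the 1 member probe set at which all contralateral glands lay below both others, against 15.2% of all. On average the set was thus ordered denervated, then contralateral close to unoperated and sham, and at no probe set did neighbours in this order pass the test. The sham gland was far below the unoperated gland at several genes, so the joined class is uneven.

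Of 51 other genes of the contractile and actin filament machinery, 29 were on the array under 1 symbol and 25 were tested, of which 15 had a higher and 10 a lower mean after denervation. Their median log2 difference was 0.11. By limma 0 passed, while at an unadjusted p under 0.05 there were 2 higher and 1 lower. Of all tested probe sets 44.6% had a higher mean, and 5.02% were higher and 4.66% lower at that level. The enteric smooth muscle actin Actg2 differed by 0.78 ± 0.49, the cytoplasmic actin Actg1 by 0.82 ± 0.29, the intermediate filament vimentin, Vim, by 1.11 ± 0.50, and caveolin, Cav1, a coat protein of membrane pits, by 0.93 ± 0.57. Actg2 had 1381, 9969, 1799, 1780 and 4762 in denervated 1 to 5, against 1165 to 2202 in control glands, so it was again denervated 2 and 5 that stood out. On the lower side were Rock1, a kinase that keeps the myosin light chain phosphorylated (-2.11 ± 0.48, adjusted p = 0.434, with 4 denervated glands at the floor), the myosin phosphatase subunit Ppp1cb (-0.29 ± 0.24), the laminin receptor subunit Itga7 (-0.71 ± 0.61) and Kcnmb1, a potassium channel subunit of smooth muscle (-0.46 ± 0.46). Des, Oxtr, Pln and Rock2 were on the array but too dim to be tested.

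Basal epithelial and hemidesmosome genes other than Krt5 and Krt14 were sparse, with 7 of 22 on the array and tested. Of these, 5 were higher and 2 lower, against 44.6% of all tested probe sets higher, and the median was 0.15. By limma 0 passed, and 1 was higher with an unadjusted p under 0.05, against 5.02% of all. That gene was Itgb4, the integrin of hemidesmosomes (1.25 ± 0.57, adjusted p = 0.509), with intensities of 1045, 4817, 3108, 1922 and 3612 in denervated 1 to 5, against 447, 1649 and 1815 in contralateral 1 to 3, 2649 in the unoperated and 406 in the sham gland. As at Tagln M83107_at and Myl9 S77900_g_at, the sham gland and contralateral 1 were the dimmest. Cd44, Jag2 and Lamc1 differed by 0.18 ± 0.36, 0.19 ± 0.43 and 0.15 ± 0.40, Egfr by -0.78 ± 0.51 and Lama3 by -0.29 ± 0.56.

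Markers of other cell types moved with the set in part. Of 15 fibroblast and matrix genes 12 were higher in denervated glands, with a median of 1.15, 0 passing by limma and 8 higher at an unadjusted p under 0.05. Their summed intensity was 147647 to 642628 in denervated and 113018 to 201624 in control glands, and their scores were highest in denervated 5 (1.36) and 2 (1.18). Dcn, Sparc and Col1a1, genes of matrix proteins, differed by 1.35 ± 0.49, -0.53 ± 0.56 and 1.65 ± 0.75, and Mgp by 1.81 ± 0.56. Blood cell genes, of which 4 of 5 were higher and 1 of them at that unadjusted level, had their highest scores in the same glands, 1.34 in denervated 2 and 1.38 in denervated 5, with summed intensities of 55922 to 382897 in denervated and 32246 to 182913 in control glands. Of 7 macrophage genes 6 had a higher mean, 3 of them at an unadjusted p under 0.05, the median was 0.51, and their summed intensity was 80056 to 335274 in denervated and 47760 to 123864 in control glands. Apoe was the brightest macrophage gene (mean log2 16.24), ahead of Lyz2 (14.78), and weighs most in that sum. The part of these cells in the differences of the 10 genes was not tested.

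Duct and luminal keratins, Krt8, Krt18 and Krt19, differed by 0.11 ± 0.26, 0.42 ± 0.23 and 1.35 ± 0.52, of which Krt19 was higher at an unadjusted p under 0.05, with summed intensities of 53228 to 112384 in denervated and 49681 to 82951 in control glands. Their scores were again highest in denervated 2 (1.07) and 5 (0.55). Of 5 endothelial genes 4 had a lower mean, with a median of -0.48, 0 at an unadjusted p under 0.05 and summed intensities of 2198 to 5191 in denervated and 3404 to 7042 in control glands. Pericyte markers, 3 of 5 higher with a median of 0.16, had summed intensities of 3352 to 21412 in denervated and 4733 to 19795 in control glands. Anpep was the brightest pericyte gene (mean log2 12.36), ahead of Abcc9 (10.63), so it weighs most in that sum. Pdgfrb and Kcnj8 were at the floor in 4 and 3 glands. The scores of both vessel lists were highest in contralateral 1, sham and denervated 1, the glands with the lowest scores of the 10 genes. Skeletal muscle genes, which would mark attached muscle, had a median of -0.03 with 6 of 13 higher and 1 lower at that unadjusted level. Their summed intensities were 7198 to 26817 in denervated and 10806 to 25492 in control glands. Their lowest scores were in denervated 2 (-1.08) and 5 (-0.80). Of 6 nerve and Schwann cell genes 4 had a higher mean, with a median of 0.16 and summed intensities of 4831 to 11665 in denervated and 3978 to 6014 in control glands, and 1 was higher at that unadjusted level. Of 9 acinar genes 4 had a higher mean, with a median of -0.09 and summed intensities of 302870 to 829532 in denervated and 377736 to 1073020 in control glands. At that unadjusted level 3 acinar genes were higher and 0 lower. The 3 were Dmbt1, a secreted mucosal glycoprotein (1.53 ± 0.36, limma adjusted p = 0.434), Csap1 (3.26 ± 1.27) and Slc12a2 (0.87 ± 0.35). Aqp5 also had a higher mean (0.23 ± 0.33). The 5 acinar genes with a lower mean were Obp3 (-0.09 ± 0.42), Bhlha15 (-1.30 ± 0.64), Rab3d (-0.53 ± 0.26), Dnase1 (-2.07 ± 1.72) and Scgb2a1 (-2.50 ± 2.55). By limma 0 genes of these lists passed.

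**Figure D3:**
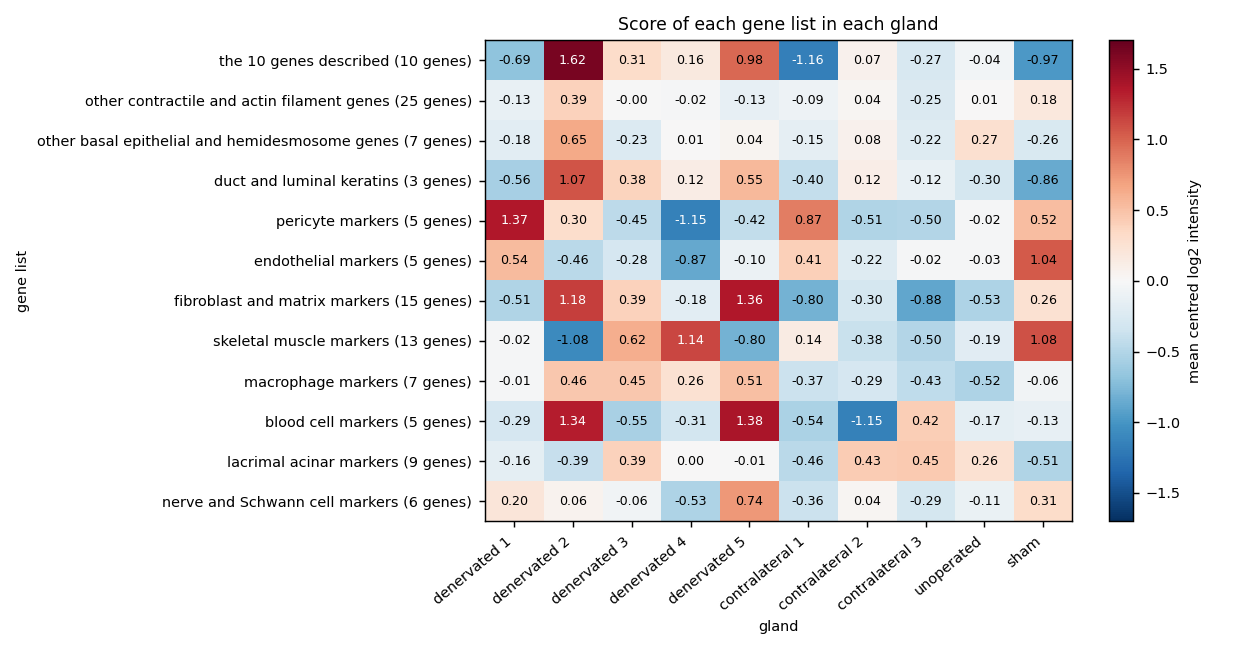
Score of each gene list (rows) in each gland (columns), the mean over its tested genes of log2 intensity centred on the mean of the 10 glands, in colour and as printed. The top row, the 10 genes, reaches 1.62 in denervated 2 and 0.98 in denervated 5 and is -1.16 in contralateral 1, and fibroblast and blood cell lists are highest in the same pair of denervated glands.

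Among 3511 other genes, those whose log2 intensity over the 10 glands was most like the mean profile of the set were Igfbp5, a binding protein of insulin-like growth factors (Pearson r = 0.961), the inflammasome protease Casp1 (0.960), the choline transporter-like Slc44a4 (0.956), App, the amyloid precursor (0.948), the secreted protein Mia (0.945) and the tubulin Tuba1b (0.936). These are the top of a ranking over glands that share the array differences described above. Of the set itself, Acta2 and Krt5 lay closest to the shared profile (0.962 and 0.956), while Tpm4 (0.499) and the brightest probe set of Tpm1 (-0.0794) lay farthest from it. Each gene of the set is part of that profile, so its r cannot be set beside those of the other genes.

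As a measure of RNA quality, the 3' signal was divided by the 5' signal of each control transcript. On the log2 scale denervated minus control glands came to -0.16 for beta-actin, with p = 0.389 by a two-sided exact permutation test. By the same exact test GAPDH came to 0.06 (p = 0.746) and hexokinase to 0.40 (p = 0.619). Adjusted over the 3 transcripts, each value was 0.746.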

How the data were processed

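Array intensities of 10 glands were analysed as deposited, 1 linear intensity per probe set and array. The scanning software is not given in the sources used here, and the deposited intensities show that the authors had scaled each array, since means with 2% trimmed at each end ran from 2505 to 2507. The 59 control probe sets were left out. Intensities below the 20th percentile, 156.2, were set to that floor, log2 was taken, and the 6118 of 8740 probe sets with a mean above the 30th percentile were tested. Differences involving the floor understate the change.

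Symbols came from the platform annotation, and probe sets with several symbols were not named. Groups were compared with limma 3.58.1 in R 4.3.3 (lmFit, eBayes with a variance trend, two-sided), adjusted by Benjamini-Hochberg over all tested probe sets, with a threshold of 0.05. The steps were tested on simulated data. The members, lists and named genes were chosen with earlier results of these data known. The rule for names took every probe set of the 10 genes, the 4 smallest p per direction in both related lists, up to 4 of the brightest genes of each marker list, of which some are given, and the 6 genes most like the set. Beyond this rule, all 9 tested acinar genes are named. Figures were drawn with matplotlib 3.10.9.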

Additional observations from a re-analysis of the deposited data

Results flagged for a closer look

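The tests left out 2 member probe sets as too dim, and both had a mean in denervated glands above the highest control value. Only this direction was looked for, and the share of all untested probe sets that show it was not counted. Both lie near the floor, so little can be read from them. Myh11 X16261_i_at had a mean log2 intensity of 7.73 in denervated glands, with intensities of 236, 246 and 308 in denervated 2, 4 and 5 and the other denervated glands below the floor, while all 5 control glands were below the floor of 7.29. Tpm1 rc_AI144767_s_at had a mean of 7.87 in denervated glands, with 2 of them at the floor, against a highest control value of 7.81. Dixon's test flagged no gland in 38 sets of values, denervated or control, at the tested probe sets. It looks for a single outlying gland, so it can miss 2 glands that are extreme together, such as denervated 2 and 5.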

How the results depend on the processing

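No member probe set passed an adjusted p of 0.05 in denervated against all control or contralateral glands under any of 23 alternatives. Of 856 differences of single probe sets, 831 kept their sign, but many of them could not turn. The filter settings, the variance trend and the choice of 1 probe set per gene leave each difference as it is. The share over all probe sets that kept their sign was not counted. Over all probe sets, the count past the threshold against all controls was 0 to 69 leaving out each gland, the 69 (47 higher) coming without denervated 1. Against contralateral glands it was 1 with no variance trend, 1 with array weights and 0 to 0 leaving out each gland. Against the unoperated and sham glands it was 13 with no filter on dim probe sets, 13 without contralateral 1, sham and denervated 1, and 0 to 5 leaving out each gland, and for contralateral glands against that class 7 with no filter and 0 to 1.

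Member probe sets at an unadjusted p under 0.05 against all controls numbered 5 with no variance trend, 6 of 10 with 1 probe set per gene, 0 without denervated 2 and 5 and 3 to 15 leaving out each gland. Of all tested probe sets 4.2%, 5% and 0.948% were higher at that level with no trend, with 1 probe set per gene and without denervated 2 and 5. The share was 2.71% without denervated 2 and 2.76% without denervated 5 (count 3 each), and 8.56% without denervated 1 (count 15). Against contralateral glands they numbered 2 with quantile or median scaling, with the 50th percentile filter or with no trend, 1 with no filter or 1 probe set per gene, 6 without contralateral 1, sham and denervated 1 or with these as a block, 0 without denervated 2 and 5, and 0 to 11 leaving out each gland. Of all tested probe sets 3.69%, 3.53%, 4.39% and 3.69% were higher with quantile scaling, median scaling, the 50th percentile filter and no trend. The share was 3.08% with no filter and 3.88% with 1 probe set per gene. It was 6.13% without contralateral 1, sham and denervated 1 and 5.15% with these as a block. It was 1.27% without denervated 2 and 5, 3.58% without contralateral 1 (count 0) and 7.57% without denervated 1 (count 11). Labels share numbers between contralateral and denervated glands, but same-numbered glands deviated together at r of 0.49, 0.04 and 0.16, so the numbers were not taken as pairs. With the replicate block the count was 15 against all controls and 6 against contralateral glands, where 5.88% and 3.45% of all tested probe sets were higher. The median of the members against all controls was then 0.97.

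The median of the members against all controls was 0.64 (without denervated 2) to 1.27 (without denervated 1), against contralateral glands 0.61 to 1.27, against the unoperated and sham glands 0.73 to 1.40, and for contralateral glands against that class -0.41 to 0.36. Differences that turned sign against all controls were those of Myh11 S61948_s_at, with 0.059 by quantile normalization, 0.10 by median scaling, 0.031 by array weights, 0.95 without the 3 arrays and -0.44 to 0.51 leaving out each gland, and of Tpm1 M34134_s_at, with 0.10 by median scaling, 0.10 without the 3 arrays, 0.083 with these as a block and -0.23 to 0.19 leaving out each gland. Against contralateral glands Myh11 S61948_s_at had -0.58 with the replicate block, -0.037 with the 3 arrays as a block, -1.02 without denervated 2 and 5 and -0.37 to 0.58 leaving out each gland, and Myh11 X16262_s_at had -0.054 to 2.07. Leaving out each gland, the 3' to 5' difference of beta-actin was -0.23 to -0.042, that of GAPDH -0.080 to 0.17 and that of hexokinase 0.18 to 0.99. The causes were not tested. Few arrays, the floor at Tagln and Myh11 and unknown isoform targets of the probe sets limit these values.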

Other observations

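The sham and unoperated glands, 1 gland each and compared without a test, differed widely in these genes. Cnn1 had intensities of 207 in the sham and 1208 in the unoperated gland, Tagln M83107_at 189 and 1456, Myl9 S77900_g_at 260 and 2237, Myh11 X16262_s_at 290 and 1681, and Itgb4 406 and 2649. In the opposite direction, Myh11 S61948_s_at had 1514 in the sham and 468 in the unoperated gland, Tpm1 X02412_at 1839 and 475, and Tpm4 rc_AI105374_at 1832 and 470.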
